A study of Mus musculus with 6 samples.

Results

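The mitochondrial ribosome translates the few messenger RNAs made from mitochondrial DNA, all of which encode subunits of the oxidative phosphorylation machinery. Its ribosomal RNAs come from mitochondrial DNA, but all of its proteins are encoded by nuclear genes, made on cytosolic ribosomes and imported, so that the amount of mitochondrial ribosome depends on RNA polymerase II transcription of many unlinked genes. The genes are named Mrpl for the large subunit, which holds the peptidyl transferase centre and the exit tunnel, and Mrps for the small subunit, which binds and decodes the messenger. Expression of these genes was examined in presomitic mesoderm, the unsegmented tail-end tissue from which somites form, of mouse embryos in which Taf10 was deleted. TAF10 is a subunit of TFIID, which brings RNA polymerase II to promoters, and of the coactivator SAGA.

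Members were all probe sets whose single gene symbol in the platform annotation begins with Mrpl or Mrps followed by a number. There were 85 of them for 77 genes, 53 probe sets (48 genes) under Mrpl and 32 probe sets (29 genes) under Mrps, among 16311 probe sets with 1 symbol and 18064 in all. Membership used the symbol only and no measured value. The mutant group (TCre/+;Taf10flox/flox) carried the TCre driver and 2 floxed Taf10 alleles. The control group was labelled WT and carried the floxed allele too, as Taf10Flox/+ or as Taf10flox/flox, with no TCre given in the label. Each of the 6 arrays read RNA from a pool of 3 presomitic mesoderms of embryonic day 9.5 embryos with 17 to 19 somites, with 3 pools per genotype. TCre acts in cells that express or have expressed the driver, and the share of recombined cells in each pool is not known here. In such pools, fewer cells of a type and less RNA per cell cannot be told apart.

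The arrays had median intensities between 307.9 and 317.5. Of 12 presomitic mesoderm markers listed, 11 had a probe set, and 2 of these were called higher (Tbx6 and Hes7) and 2 lower (Rspo3 and Cyp26a1). The called share was thus 36.4%, against 5.96% of all probe sets with 1 symbol. Of the 11 changes 6 were negative (54.5%, against 42.0%). Msgn1 had log2 levels of 12.59, 12.36 and 12.71 on the mutant arrays, against 12.02, 12.17 and 12.27 on the control arrays. Of the 2 Taf10 probe sets, one lay lower on all mutant arrays (10.40, 10.37 and 10.18, against 10.77, 10.61 and 10.69 on the control arrays) and the other did not (8.85, 8.93 and 9.19, against 8.95, 8.89 and 8.79). Whether both read Taf10, and which part of its transcript each reads, is not known here, so how far Taf10 RNA fell is not known either. Mutant 3 stood apart from the other arrays, and values without it are given where it moved a result most. Control 3 read Xist at 6.32, against 11.35 to 12.57 on the other arrays, so the sexes were not balanced between pools.

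The sequences below show what the start of such genes looks like, for 4 members that later results turn on. Each is a RefSeq window (build GRCm38.p6) from 250 bases before to 50 bases after the annotated start, written 5′ to 3′ on the strand of the gene. Capitals mark a match to 1 of 5 short motifs searched on both strands, none of which contains another. These were GCGCATGC (a core of the site of NRF1, an activator of nuclear genes for mitochondria), CCGGAAG (the site of ETS factors such as GABPA), AAGATGGC (YY1), CACGTG (the E-box of MYC and related factors) and TATAAA (the TATA box, contacted by the TBP subunit of TFIID). Mrpl57 is shown because it rose in the mutant, Mrpl10 because it had the largest positive change, Mrps11 because its window also holds the start of the large subunit gene Mrpl46 on the opposite strand, and Mrps12 because it lies head to head with Sars2, a mitochondrial synthetase gene that fell.
Mrpl57 (chr14:57825989-57826288, plus strand): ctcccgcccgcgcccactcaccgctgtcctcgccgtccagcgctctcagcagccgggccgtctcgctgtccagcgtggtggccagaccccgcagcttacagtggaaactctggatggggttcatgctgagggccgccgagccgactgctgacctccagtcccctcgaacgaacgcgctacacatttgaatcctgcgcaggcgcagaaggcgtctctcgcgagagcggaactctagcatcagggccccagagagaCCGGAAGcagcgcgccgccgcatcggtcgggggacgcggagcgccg
Mrpl10 (chr11:97041332-97041631, plus strand): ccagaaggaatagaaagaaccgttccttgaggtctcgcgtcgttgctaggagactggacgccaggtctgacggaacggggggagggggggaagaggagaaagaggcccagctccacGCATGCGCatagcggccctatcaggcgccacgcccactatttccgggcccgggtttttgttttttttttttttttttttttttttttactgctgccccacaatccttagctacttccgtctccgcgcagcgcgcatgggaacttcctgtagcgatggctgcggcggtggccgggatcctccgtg
Mrps11 (chr7:78782881-78783180, plus strand): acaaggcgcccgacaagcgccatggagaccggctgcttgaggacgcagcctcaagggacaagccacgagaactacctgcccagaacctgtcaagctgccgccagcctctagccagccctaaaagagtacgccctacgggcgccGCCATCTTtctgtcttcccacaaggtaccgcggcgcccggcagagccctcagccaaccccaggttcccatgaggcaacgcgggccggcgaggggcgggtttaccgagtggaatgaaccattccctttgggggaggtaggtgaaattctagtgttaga
Mrps12 (chr7:28741772-28742071, minus strand): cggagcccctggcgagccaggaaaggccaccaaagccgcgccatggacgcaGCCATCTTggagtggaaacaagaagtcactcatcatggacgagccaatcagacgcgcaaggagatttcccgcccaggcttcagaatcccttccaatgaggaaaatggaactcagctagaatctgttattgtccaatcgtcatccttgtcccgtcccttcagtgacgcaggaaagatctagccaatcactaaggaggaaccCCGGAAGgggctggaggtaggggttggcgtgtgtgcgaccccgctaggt

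In the Mrpl57 window the ETS match begins 4 bases after the start. The match in the Mrpl10 window is the NRF1 core on the other strand, and that in the Mrps11 window is YY1 on the other strand. The Mrps12 window holds an ETS match 1 base after the start and a YY1 match on the other strand. Of the 77 member genes, 68 had at least 1 window in the RefSeq table. The ETS motif was found in 25 of the 68 (36.8%), against 15.9% of the 11918 genes of the array with a window. The YY1 motif was found in 12 (17.6%), against 4.25%, and the NRF1 core in 8 (11.8%), against 4.99%. The E-box was found in 5 (7.35%), against 10.7%, and the TATA box in 5 (7.35%), against 10.6%. By symbol, the NRF1 core was found in 7 of 42 Mrpl genes and in 1 of 26 Mrps genes, Mrps18b, while ETS and YY1 matches were found in 11 and 6 of the 26 Mrps genes and in 14 and 6 of the 42 Mrpl genes. Altogether 37 of the 68 held at least 1 of the ETS, YY1 and NRF1 motifs. These shares describe letters in a window and do not show binding. The median log2 change in the mutant was -0.10 for the genes with an ETS match and -0.04 for those without, -0.02 and -0.07 for YY1, -0.07 and -0.04 for the NRF1 core, -0.01 and -0.05 for the E-box, and -0.05 and -0.04 for the TATA box.

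**Figure D1:**
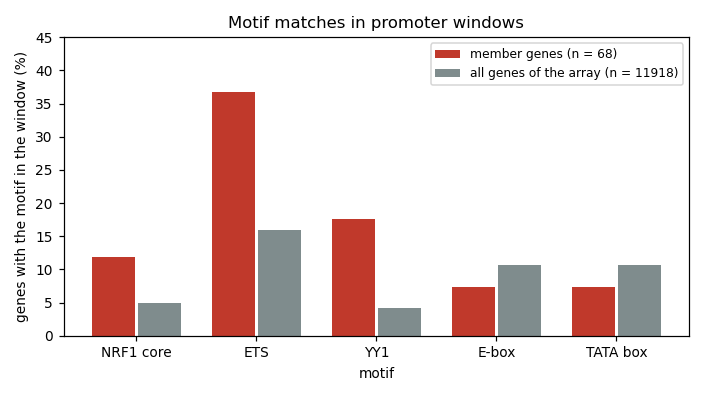
Share of genes (y axis, %) whose RefSeq promoter window holds each of 5 motifs (x axis), for the 68 member genes with a window (red) and for the 11918 genes of the array with a window (grey). The ETS bar of the members stands at 36.8% against 15.9%, and the TATA box bar at 7.35% against 10.6%.

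Calls among these genes were about as frequent as among all probe sets. Of the 85 probe sets, limma called 4 at an adjusted p under 0.05 (4.71%), against 5.96% of all 16311 probe sets tested. Mrps28, Mrpl54 and Mrps33 fell and Mrpl57 rose. The called shares were 1 higher (1.18%, against 2.88% of all probe sets) and 3 lower (3.53%, against 3.08%), which is near the background in both directions. Each change is the mutant mean less the control mean of log2 intensity, given with its standard error (SE) from limma and a Benjamini-Hochberg p adjusted over all 16311 probe sets. For a single probe set the exact two-sided permutation test of 3 against 3 arrays cannot go below p = 0.1, and each of the 4 reached that value. Of the 81 probe sets that were not called, 63 had a 95% interval of the change that lay within -0.5 to 0.5, so that a change of 1.41-fold lay outside it. The other 18 had wider or shifted intervals, and for them the number of arrays limits what can be said.

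Mrps28 encodes a small subunit protein counted as the mitochondrial counterpart of bacterial S1. Its log2 levels were 8.45, 8.58 and 8.73 on the mutant arrays, against 9.31, 9.34 and 9.23 on the control arrays. All mutant values lay below all control values, with a gap between the groups wider than the range within either. The mean was 8.59 ± 0.14 in mutant and 9.30 ± 0.06 in control pools (SD, n = 3 each), a fall to 61.3% of control (log2 change -0.71, SE 0.08, limma adjusted p = 0.00691). Leaving out mutant 3 gave -0.78 (limma adjusted p = 0.000962). The call was lost without control 1 (limma adjusted p = 0.0541) or control 2 (0.0569), at changes of -0.70 and -0.68.

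Mrpl54 encodes a large subunit protein with no bacterial counterpart. It had log2 levels of 10.29, 10.23 and 10.37 in mutant pools, against 11.01, 10.76 and 10.81 in control pools. The groups did not overlap, and the mutant pools were closer to each other than the control pools. The fall was to 67.5% of control (log2 change -0.57, SE 0.08, limma adjusted p = 0.0126), and it was not called without control 1 (limma adjusted p = 0.0633) or control 2 (0.0597).

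Mrps33 encodes a small protein found only in mitochondrial small subunits. Probe set 10563829 had log2 levels of 9.43, 9.51 and 9.38 in mutant pools, against 9.89, 9.81 and 9.69 in control pools, and fell to 77.8% of control (log2 change -0.36, SE 0.08, limma adjusted p = 0.0349). The other Mrps33 probe set (10544243) had log2 levels of 6.20, 6.16 and 6.07 in mutant pools, against 6.33, 6.21 and 6.24 in control pools, and was not called (log2 change -0.12, SE 0.07, limma adjusted p = 0.351). The order of the array's numbering bears on which of them reads the gene. Of the 20 nearest numbered probe sets of the one that fell, 0 lay on the chromosome of Mrps33 (6) and 18 lay on chromosome 7. Whether that probe set reads Mrps33 is thus open to doubt. Its call was lost without any 1 of the arrays except mutant 3, with limma adjusted p from 0.0572 to 0.156.

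Mrpl57, earlier called Mrp63, encodes a small protein of the mitochondrial large subunit. Its log2 levels were 10.33, 10.22 and 10.08 in mutant pools, against 9.92, 9.77 and 9.83 in control pools. Each mutant pool lay above each control pool, with mutant 3 nearest to the controls. The rise was 1.29-fold (log2 change 0.37, SE 0.08, limma adjusted p = 0.0426). Without mutant 3 it was 0.44 (limma adjusted p = 0.00668), and the call was lost without any other single array (limma adjusted p from 0.108 to 0.188) and with the level of Xist as a covariate (0.101).

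**Figure D2:**
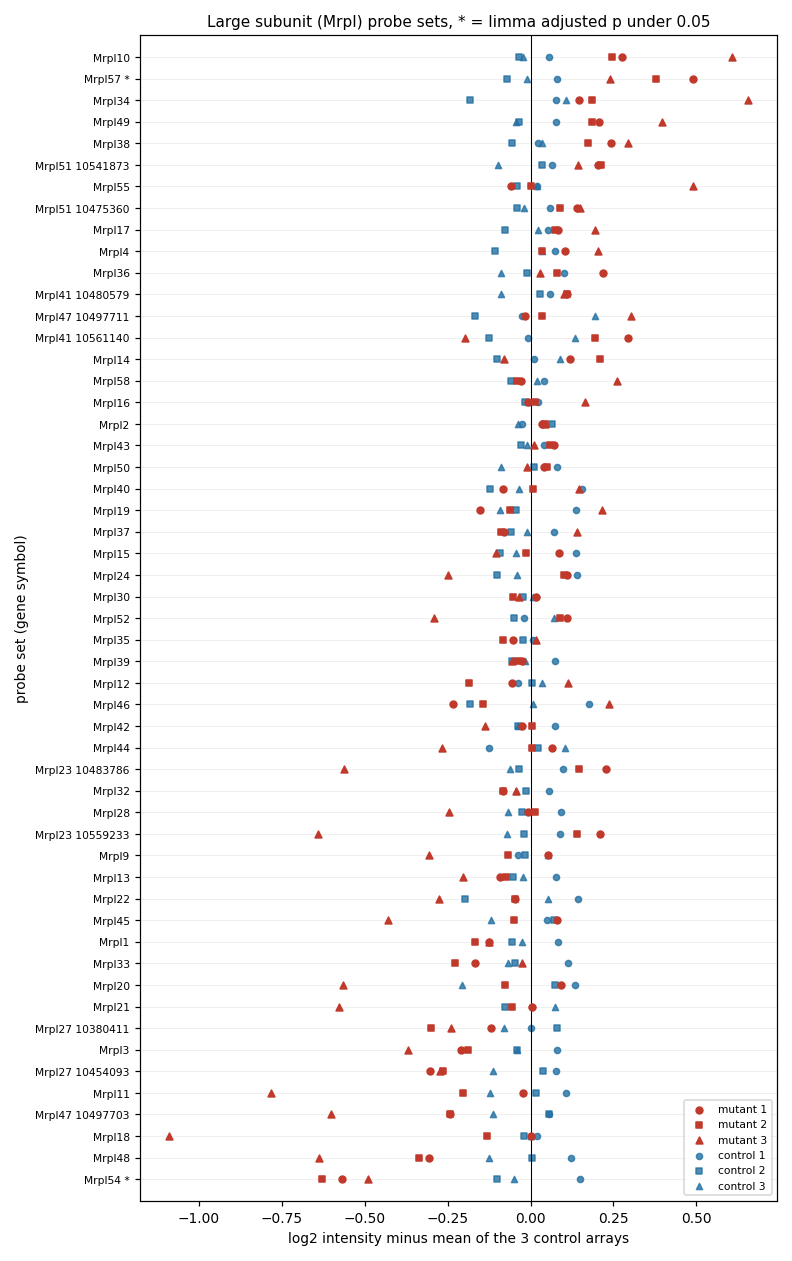
The 53 Mrpl probe sets (rows) on the 3 mutant (red) and 3 control (blue) arrays, as log2 intensity less the control mean (x axis); marker shape gives the replicate number, and a star a limma adjusted p under 0.05. Mrpl54 lies lowest with a mean of -0.57, and mutant 3 alone reaches the far left for Mrpl18.

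Mutant 3 differed from the other arrays in many members. It lay at least 0.3 log2 units below all 5 other arrays in 17 of the 85 probe sets (20%, against 8.67% of all probe sets) and at least 0.3 above them in 5 (5.88%, against 4.10%). No other array stood out by this much in any member. The probe sets read low in mutant 3 included Mrps36 (10566514, below the next array by 1.05), Mrpl18 (0.96), Mrps27 (0.68), Mrpl11 (0.58), Mrpl23 (0.57 and 0.51 by its 2 probe sets), Mrpl21 (0.51), Mrps10 (0.49) and Mrps18c (0.46). Those read high were Mrps11 (0.52), Mrpl34 (0.47), Mrpl55 (0.47), Mrps2 (0.33) and Mrpl10 (0.33). Mrpl18, a protein of the central protuberance beside the mitoribosome's structural RNA, shows the pattern plainly. Its log2 levels were 10.02, 9.89 and 8.93 in mutant pools, against a control mean of 10.02 ± 0.02 (SD, n = 3), so mutants 1 and 2 lay at or just under the controls and mutant 3 far below them (log2 change -0.41, SE 0.25, limma adjusted p = 0.376, and -0.06 without mutant 3). Mutant 3 also had the lowest summed intensity of 6 blood markers, 4093, against 16724 and 14799 in mutants 1 and 2 and 9374 to 22583 in control pools. The brightest of the 6 were the globin genes Hba-x, Hbb-bh1 and Hbb-y, each lowest in mutant 3 (log2 levels of 10.51, 9.86 and 10.29). Gata1 (6.55) and Alas2 (7.92) in mutant 3 lay within the control ranges of 6.35 to 6.70 and 7.73 to 8.61. Klf1 stood at 6.85 both in mutant 3 and in control 2. The part of blood cells in these readings was not tested.

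By symbol, the median deviation from the control mean set mutant 3 apart for Mrps and not for Mrpl. The Mrps symbols include 3 genes, described below, whose products are not small subunit proteins. For Mrps probe sets it was -0.02, -0.06 and -0.27 in mutants 1, 2 and 3, against 0.06, -0.05 and -0.03 in controls 1, 2 and 3. For Mrpl probe sets it was 0.01, -0.00 and -0.04 in the mutants, against 0.07, -0.04 and -0.03 in the controls. Between the quartiles the 85 members spanned 0.18, 0.19 and 0.56 log2 units in mutants 1, 2 and 3, against 0.07, 0.07 and 0.10 in the controls. All probe sets spanned 0.18, 0.18 and 0.38 in the mutants, against 0.10, 0.08 and 0.09 in the controls. The Mrps median of mutant 3 was the lowest of the 6 arrays, and without that array the median change of Mrps was -0.05, against -0.11 with it.

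**Figure D3:**
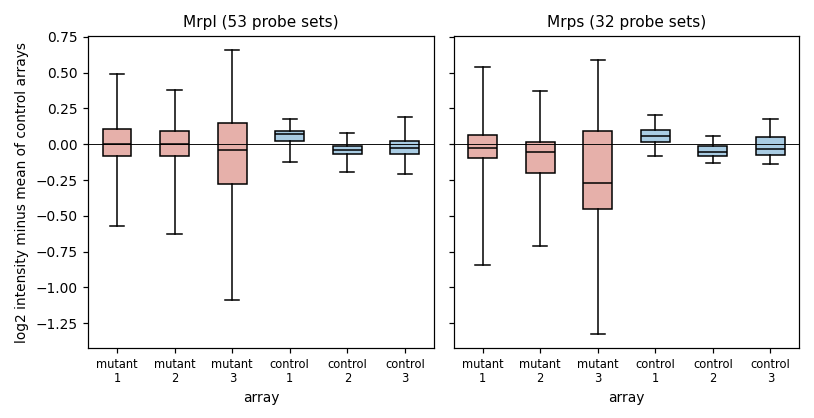
Log2 intensity less the control mean (y axis) for the 53 Mrpl and 32 Mrps probe sets on each of the 6 arrays (x axis); boxes span the quartiles, lines mark medians and whiskers reach the lowest and highest value, with mutant arrays in red and control arrays in blue. Mutant 3 has the widest boxes, and its Mrps median lies at -0.27.

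With mutant 3 left out, limma called 10 of the 85 probe sets, 4 higher (against 6.27% of all probe sets) and 6 lower (against 6.72%). The 4 probe sets called with all arrays were among them. The other rises were those of Mrps6, a small subunit protein with a bacterial counterpart (log2 change 0.45, SE 0.07, limma adjusted p = 0.00812), Mrpl10, which anchors the stalk that recruits translation factors (0.26, limma adjusted p = 0.0220), and Mrps24, the counterpart of bacterial S3 (0.26, 0.0223). The other falls were those of Mrpl48, a protein of the central protuberance (-0.32, limma adjusted p = 0.0337), Mrpl27, the counterpart of bacterial L27 near the peptidyl transferase centre (-0.28, 0.0380), and Mrps5 (-0.21, 0.0386). For Mrpl48 and for this Mrpl27 probe set (10454093), 0 and 1 of the 20 nearest numbered probe sets lay on the gene's chromosome, so what they read is not settled.

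Over all arrays, several of these came close to the threshold. Mrpl10 had log2 levels of 10.96, 10.93 and 11.29 in mutant pools, against 10.74, 10.65 and 10.66 in control pools (log2 change 0.38, SE 0.10, limma adjusted p = 0.0745). The groups did not overlap, and mutant 3 was the highest. Mrps6 had 10.50, 10.33 and 10.04 in mutant pools, against 9.99, 9.87 and 10.02 in control pools (0.33, SE 0.11, limma adjusted p = 0.136), with mutant 3 next to the controls. Mrpl48 had 9.48, 9.45 and 9.15 in mutant pools, against 9.91, 9.79 and 9.66 in control pools (-0.42, SE 0.11, limma adjusted p = 0.0605). Its mutant values all lay below the controls.

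Large subunit proteins with a bacterial counterpart numbered 29 genes and 32 probe sets, and 0 were called by limma, with 1 higher and 4 lower at an unadjusted p under 0.05 (against 11.4% of all probe sets in each direction). Their median log2 change was -0.07, against 0.03 over all 16311 probe sets. Those with the smallest p besides Mrpl10 and Mrpl27 were Mrpl3, a core protein that reaches the catalytic centre, and Mrpl47, the counterpart of bacterial L29 at the exit tunnel. Mrpl3 had log2 levels of 10.66, 10.68 and 10.50 in mutant pools, against 10.95, 10.83 and 10.83 in control pools (log2 change -0.26, SE 0.08, limma adjusted p = 0.0917). The mutant values all lay below the controls. Mrpl47 was read by 2 probe sets that pointed in opposite directions. Probe set 10497703 had 8.22, 8.22 and 7.86 in mutant pools, against 8.52, 8.52 and 8.35 in control pools (-0.36, limma adjusted p = 0.102). Probe set 10497711, which the annotation ties to a single cDNA, had 7.23, 7.28 and 7.55 in mutant pools, against 7.22, 7.08 and 7.44 in control pools (0.10, limma adjusted p = 0.622). Mrpl12, the stalk protein that in human cells also binds the mitochondrial RNA polymerase, had 10.28, 10.15 and 10.45 in mutant pools, against 10.30, 10.34 and 10.37 in control pools (-0.04, 95% interval -0.24 to 0.15), with overlapping groups. The remaining members of this group ranged from -0.41 (Mrpl18) to 0.33 (Mrpl34, 0.17 without mutant 3).

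Large subunit proteins found only in mitochondria numbered 19 genes and 21 probe sets, with a median of 0.03, and held both Mrpl54, which fell, and Mrpl57, which rose. Of the others, Mrpl38, a protein of the central protuberance, had log2 levels of 10.01, 9.94 and 10.06 in mutant pools, against 9.79, 9.71 and 9.80 in control pools (log2 change 0.23, SE 0.07, limma adjusted p = 0.0807). Mrpl49 had 10.62, 10.60 and 10.81 in mutant pools, against 10.49, 10.38 and 10.37 in control pools (0.26, SE 0.08, limma adjusted p = 0.0996). In both the mutant values lay above the controls. Mrpl51 was read by 2 probe sets. Probe set 10541873 had 9.65, 9.66 and 9.59 in mutant pools, against 9.51, 9.48 and 9.35 in control pools (0.19, limma adjusted p = 0.154). Probe set 10475360 had 10.01, 9.96 and 10.02 in mutant pools, against 9.93, 9.83 and 9.85 in control pools (0.12, limma adjusted p = 0.292). Both had mutant values above the controls. Mrpl45, which sits at the exit of the tunnel and ties the ribosome to the inner membrane, had 9.42, 9.29 and 8.91 in mutant pools, against 9.39, 9.41 and 9.22 in control pools (-0.13, 95% interval -0.43 to 0.17). Mutant 3 lay below the control range, and without it the change was 0.01. Mrpl58, a peptidyl-tRNA hydrolase that frees stalled chains, stood at 0.06 (limma adjusted p = 0.724, and -0.04 without mutant 3), with 9.81, 9.80 and 10.10 in mutant pools against 9.88, 9.78 and 9.86 in control pools.

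Small subunit proteins with a bacterial counterpart numbered 16 genes and 17 probe sets, with a median of -0.09, and Mrps28 was the one called. Mrps5, whose bacterial counterpart lines the path of the messenger, was lower in both probe sets annotated to it. Probe set 10475830 had log2 levels of 9.52, 9.47 and 9.40 in mutant pools, against 9.73, 9.68 and 9.71 in control pools (log2 change -0.24, SE 0.06, limma adjusted p = 0.0670). Probe set 10480379 had 9.90, 9.76 and 9.65 in mutant pools, against 10.06, 9.91 and 9.92 in control pools (-0.19, SE 0.08, limma adjusted p = 0.226). In both, the groups did not overlap, although mutant 1 came close to control 2 in the second. The nearest numbered probe sets were those of Gpat2 and Acoxl for the first, and those of Pip4k2a and Arhgap21 for the second. Whether both read Mrps5 is thus not settled. Mrps24 had 9.81, 9.87 and 9.73 in mutant pools, against 9.63, 9.53 and 9.57 in control pools (0.23, SE 0.07, limma adjusted p = 0.0958), and Mrps17 had 8.09, 7.92 and 7.75 in mutant pools, against 8.22, 8.14 and 8.11 in control pools (-0.24, SE 0.09, limma adjusted p = 0.187). Neither pair of groups overlapped. Mrps12, the counterpart of the bacterial S12 protein of the decoding centre, had 8.22, 8.20 and 7.96 in mutant pools, against 8.19, 8.06 and 8.22 in control pools (-0.03, 95% interval -0.24 to 0.17). Mrps2 had 10.38, 10.38 and 10.71 in mutant pools, against 10.34, 10.27 and 10.38 in control pools (0.16, limma adjusted p = 0.371), and Mrps11, whose levels are given with its neighbour Mrpl46, had a change of 0.24 (limma adjusted p = 0.366). In both, mutants 1 and 2 lay near the highest control and mutant 3 well above it, and without mutant 3 the changes were 0.05 for Mrps2 and 0.06 for Mrps11.

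Small subunit proteins found only in mitochondria numbered 10 genes and 11 probe sets, with a median of -0.07, and the first Mrps33 probe set was the one called. Mrps25 had log2 levels of 9.23, 9.16 and 9.13 in mutant pools, against a control mean of 8.98 ± 0.07 (SD, n = 3; log2 change 0.19, SE 0.07, limma adjusted p = 0.140), without overlap. The other members ranged from -0.30 (Mrps27, -0.05 without mutant 3) to 0.12 (Mrps26, 0.02 without mutant 3).

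Of 3 genes with Mrps symbols, the products are placed elsewhere. MRPS30 and MRPS18A are proteins of the large subunit, and MRPS36 is a subunit of the oxoglutarate dehydrogenase complex. All 4 of their probe sets had negative changes (against 42.0% of all probe sets) and 0 were called by limma, with 2 lower at an unadjusted p under 0.05 (against 11.4%). Their median was -0.29, and -0.16 without mutant 3. Mrps30 had log2 levels of 8.59, 8.46 and 8.24 in mutant pools, against 8.93, 8.68 and 8.63 in control pools (log2 change -0.32, SE 0.11, limma adjusted p = 0.150). Mrps18a had 9.74, 9.71 and 9.54 in mutant pools, against 9.98, 9.78 and 9.81 in control pools (-0.20, SE 0.08, limma adjusted p = 0.216). The mutant values of both lay below the controls. Mrps36 probe set 10411722 had 10.24, 10.09 and 9.55 in mutant pools, against 10.38, 10.17 and 10.12 in control pools (-0.26, SE 0.17, limma adjusted p = 0.392). Probe set 10566514 had 8.86, 8.69 and 7.64 in mutant pools, against 9.17, 8.90 and 8.83 in control pools (-0.57, SE 0.29, limma adjusted p = 0.287). Mutant 3 was the lowest array in both, and without it the changes were -0.06 and -0.19. For the second, 0 of its 20 nearest numbered probe sets lay on the gene's chromosome.

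**Figure D4:**
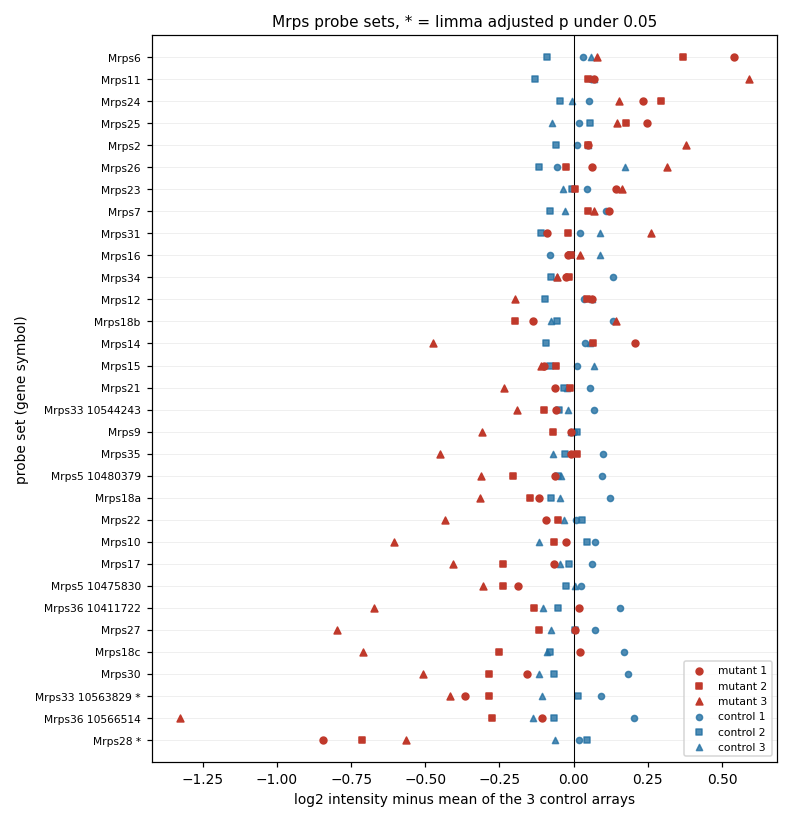
The 32 Mrps probe sets (rows) on the 3 mutant (red) and 3 control (blue) arrays, as log2 intensity less the control mean (x axis); marker shape gives the replicate number, and a star a limma adjusted p under 0.05. Mrps28 lies lowest with all 3 mutant arrays to the left, and Mrps36 (10566514) owes its place to mutant 3.

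Of the 85 probe sets, 8 genes had 2 each. Both probe sets had the same sign for Mrpl23, Mrpl27, Mrpl41, Mrpl51, Mrps5, Mrps33 and Mrps36, and opposite signs for Mrpl47. Mrpl27 probe set 10454093 averaged 8.98 ± 0.02 in mutant and 9.26 ± 0.10 in control pools (SD, n = 3 each; log2 change -0.28, limma adjusted p = 0.0644). Probe set 10380411 had 7.86, 7.68 and 7.74 in mutant pools, against 7.98, 8.06 and 7.90 in control pools (-0.22, limma adjusted p = 0.133). The mutant values of both lay below the controls. Mrpl41 probe set 10480579 had 8.11, 8.11 and 8.10 in mutant pools, against 8.06, 8.03 and 7.91 in control pools (0.11, limma adjusted p = 0.368). Its probe set 10561140 had 9.05, 8.95 and 8.56 in mutant pools, against 8.75, 8.63 and 8.89 in control pools (0.10, limma adjusted p = 0.688). The first had no overlap, and in the second mutant 3 was the lowest array. Mrpl23 probe set 10559233 had 11.54, 11.47 and 10.69 in mutant pools, against 11.42, 11.31 and 11.26 in control pools (-0.10, limma adjusted p = 0.806). Its probe set 10483786 had 10.46, 10.38 and 9.67 in mutant pools, against 10.33, 10.20 and 10.17 in control pools (-0.07, limma adjusted p = 0.861). In both, mutants 1 and 2 lay above every control and mutant 3 below every control, and without mutant 3 the changes were 0.18 and 0.19. In the array's numbering, 7 of the 85 probe sets had at most 1 of their 20 nearest neighbours on the chromosome of their gene. They were single probe sets of Mrpl48, Mrpl27, Mrpl23, Mrpl41, Mrpl51, Mrps36 and Mrps33. Among the other 78, 1 was called higher and 2 lower, with a median of -0.04. The check compared chromosomes only. A probe set numbered elsewhere on its gene's own chromosome, as is possible for Mrps5, would pass it.

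By position, 13 of the 85 probe sets had all mutant values above all control values (15.3%, against 16.6% of all probe sets) and 17 had them all below (20%, against 15.7%). In all, 31 changes were positive and 54 negative (63.5%, against 42.0% of all probe sets). The negative share was 58.5% for Mrpl and 71.9% for Mrps. The median was -0.05, against 0.03 over all probe sets, and it was -0.11 for Mrps and -0.03 for Mrpl, the last of which turned to 0.01 after quantile normalization and with each array's dependence on level taken out. Quantile normalization gave 2 calls higher and 3 lower, against 1 and 3 without it.

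The cytosolic ribosomal protein genes, measured on the same arrays, lay lower. Of their 157 probe sets (49 genes, by symbols Rpl and Rps with a number) limma called 32 lower (20.4%, against 3.08% of all probe sets) and 0 higher (against 2.88%), with a median of -0.36. In all 150 of their changes were negative (95.5%, against 42.0% of all probe sets). By gene, with the probe set of the highest mean standing for each, 9 of the 49 were called lower (18.4%, against 2.96% of all genes), with a median of -0.29. Without mutant 3 the median of the 157 probe sets was -0.22, and 66 were called lower (against 6.72% of all probe sets). Many of those probe sets can also bind RNA of near-identical pseudogenes. Of 38 probe sets for nuclear subunits of respiratory complex I, which contains products of mitochondrial translation, 1 was called higher (2.63%) and 0 lower, with a median of 0.05. Without mutant 3 these counts were 5 and 1 (against 6.27% and 6.72% of all probe sets). The difference between these lists was not tested.

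**Figure D5:**
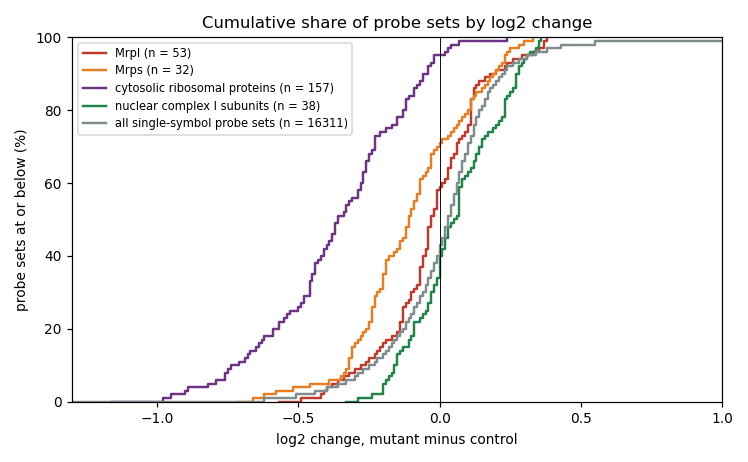
Cumulative share of probe sets (y axis, %) by log2 change, mutant minus control (x axis, shown from -1.3 to 1), drawn at each percentile for Mrpl, Mrps, cytosolic ribosomal protein and complex I probe sets and for all probe sets with 1 symbol. The Mrpl and Mrps curves cross the middle at -0.03 and -0.11, against 0.03 for all probe sets, and the cytosolic curve crosses at -0.36. The quartiles of all probe sets are -0.09 and 0.12, so the Mrps median lies below the lower one.

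Few of the genes that act with the mitochondrial ribosome were called, read against 5.96% called among all probe sets and 22.8% at an unadjusted p under 0.05. Of 4 measured ribosomal proteins with other symbols, 0 were called by limma. The nearest was Dap3, a GTP-binding protein of the small subunit, which had a change of 0.22 (SE 0.07, limma adjusted p = 0.0993). Among 14 probe sets of 13 translation factor genes 0 were called, with the initiator formyltransferase gene Mtfmt at 0.25 (SE 0.08, limma adjusted p = 0.110), at an unadjusted p under 0.05 and alone in this (7.14% of the list). Without mutant 3, 2 of the list were called higher and 2 lower (against 6.27% and 6.72% of all probe sets), and Mtfmt rose (0.32, limma adjusted p = 0.00901). Among 25 probe sets of 24 assembly factor genes 1 was called, the GTPase gene Gtpbp10, which fell to 74.4% of control by probe set 10578069 (log2 change -0.43, SE 0.07, limma adjusted p = 0.0155) and was not called by 10527970 (-0.22, SE 0.25, limma adjusted p = 0.631). By gene, with the probe set of the highest mean standing for each, 0 of the 24 were called. Without mutant 3 both Gtpbp10 probe sets fell, with changes of -0.38 and -0.55. Others were Noa1 (0.27, limma adjusted p = 0.0758) and Fastkd2 (-0.49, limma adjusted p = 0.0962), which without mutant 3 were called at 0.32 (limma adjusted p = 0.0125) and -0.32 (0.0436). Among 17 probe sets for mitochondrial DNA transcription and maintenance 0 were called by limma and 4 had an unadjusted p under 0.05 (23.5%, near the share of all probe sets). These were Tfb2m (0.19 by probe set 10400165, and -0.01 by 10360580, which was not among them), Top1mt (0.17), Mtpap (-0.23) and Supv3l1 (-0.16). Tfam, the packaging and transcription factor, was not among them. It stood at -0.38 (SE 0.20, limma adjusted p = 0.295), and at -0.12 without mutant 3. The place in the array's numbering was checked for members only. Which locus each probe set of Gtpbp10 and Tfb2m reads is thus not settled.

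Of 12 regulators of nuclear genes for mitochondria, 1 was called lower (8.33%, against 3.08% of all probe sets) and 0 higher (against 2.88%). Gabpb2, which encodes a partner subunit of the ETS factor GABPA, fell to 65.4% of control (log2 change -0.61, SE 0.10, limma adjusted p = 0.0142). Gabpa stood at -0.41 (SE 0.14, limma adjusted p = 0.135). Pprc1, next by p, stood at -0.18 (SE 0.07, limma adjusted p = 0.189), with all mutant values below the controls. Gabpb1 stood at -0.04 (0.776), Nrf1 at -0.10 (0.440), Yy1 at 0.12 (0.269) and Myc at 0.03 (0.891), the values in brackets being limma adjusted p. The Gabpa values lay below the controls on all mutant arrays, with mutant 3 the lowest, and without it Gabpa fell by a smaller change that was called (-0.23, limma adjusted p = 0.0437).

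Some mitochondrial ribosomal protein genes are arranged head to head with another gene. In the RefSeq table, 27 of the 68 member genes with a window had a start on the opposite strand within 1000 bases. The share among all genes of the array was not counted, so whether members are so arranged more often is not known here. The partner was measured for 24. Of these 24 partners 4 were called by limma, 3 higher and 1 lower (16.7%, against 5.96% of all probe sets), and this share of so few was not tested. Sars2, the mitochondrial seryl-tRNA synthetase gene whose start lies 147 bases from that of Mrps12, fell (log2 change -0.52, SE 0.09, limma adjusted p = 0.0226), while Mrps12 stood at -0.03. Cyb5rl rose (0.39, SE 0.07, limma adjusted p = 0.0253) beside Mrpl37 at -0.01, Pnpla7 rose (0.37, SE 0.07, limma adjusted p = 0.0253) beside Mrpl41 at 0.10, and Ppp1r10 rose (0.30, SE 0.07, limma adjusted p = 0.0416) beside Mrps18b at -0.07. Mrps11 and Mrpl46 start 42 bases apart on opposite strands, within the window printed for Mrps11. Mrpl46 had log2 levels of 8.94, 9.03 and 9.41 in mutant pools, against 9.35, 8.99 and 9.18 in control pools (-0.05, limma adjusted p = 0.865). Mrps11 had 9.97, 9.95 and 10.49 in mutant pools, against 9.96, 9.77 and 9.97 in control pools. Both were highest in mutant 3 among all arrays.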

How the data were processed

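The data are 6 one-colour arrays, 3 of mutant and 3 of control pools, made from 150 ng of total RNA per the labels' protocols. The authors deposited intensity values on a linear scale made with RMA, per the submitters' processing notes; its version and any filter are not given here. RMA subtracts background, sets arrays to a common distribution and combines probes into probe sets, and tends to compress changes of dim ones. Log2 values entered limma 3.58.1 (R 4.3.3; lmFit, eBayes, no covariate) unfiltered and not normalized again, for the 16311 probe sets with 1 symbol (734 had several and 1019 none), with Benjamini-Hochberg adjustment. The fit was tested on simulated data. Gene IDs of all 77 member genes matched RefSeq (GRCm38.p6). Role lists and members were chosen with earlier results of these data known. Values on every array are given for called members, the 5 smallest p per subunit and direction, genes with 2 probe sets, and Mrps18a, Mrps30, Mrps36, Mrpl12, Mrps12 and Mrpl45; others, such as Mrpl18, Mrpl46, Mrpl58 and partner genes, were chosen after their values were seen. Pools are biological replicates per the labels, and their number limits the precision. Alternatives are listed in the closing section.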

Additional observations from a re-analysis of the deposited data

How the results depend on the processing

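The counts rest on few arrays. With each array left out in turn, the number of member probe sets called higher ran from 0 to 4, the number called lower from 0 to 6, and the number called among all probe sets from 50 (without control 1) to 2119 (without mutant 3); without control 1 or control 2, 0 members were called by limma. With control 3 and mutant 3 left out together, 5 members were higher and 6 lower, among 2321 calls. Array weights gave 11 higher and 12 lower among 3924. An adjusted p under 0.1 gave 5 and 7 among 1849, and an unadjusted p under 0.05 gave 8 and 12 among 3724. Quantile normalization and taking out each array's dependence on level each gave 2 higher, and Xist as a covariate 0 higher among 561 calls. With the replicate block 6 members were lower. The replicate numbers were not taken as pairs, since the deviations of same-numbered arrays correlated at 0.134, 0.0769 and 0.316, and mutant 1 correlated best with control 2 (0.166). With 1 array left out, the Mrps median ran from -0.17 (without mutant 1) to -0.05 (without mutant 3) and the Mrpl median from -0.05 to 0.00. Of 35 probe sets followed singly, 5 changed sign under some alternative, counting values that round to 0.00 as no change of sign, and none of the 5 was called under any alternative run. Mrpl41 (10561140), at -0.00 without mutant 1, was called with array weights (0.24, limma adjusted p = 0.0374) and without control 3 and mutant 3 (0.31, 0.0307). With array weights Mrpl23 stood at 0.15 (10559233) and 0.16 (10483786) and Mrps12 at 0.06. Without mutant 3 they stood at 0.18, 0.19 and 0.05, and Mrpl45 at 0.01. Without control 3 and mutant 3 they stood at 0.14, 0.16 and 0.08. Mrpl12 stood at 0.03 without mutant 2. With 1 array left out in turn, Mrpl23 ran from -0.25 to 0.18 (10559233) and from -0.21 to 0.19 (10483786), Mrpl45 from -0.24 to 0.01, Mrpl12 from -0.12 to 0.03 and Mrps12 from -0.08 to 0.05. The causes were not tested.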

Other observations

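The probe set annotated to both Ccdc142 and Mrpl53 was left out of the counts above because it has 2 symbols. Its log2 levels were 8.48, 8.37 and 8.31 in mutant pools, against 8.48, 8.52 and 8.39 in control pools (log2 change -0.08, SE 0.07, limma adjusted p = 0.547 in the fit of all 18064 probe sets).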
